A study of Mus musculus with 3 samples.

Results

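The genes described here are autosomal Nduf genes, most of which encode nuclear subunits or assembly factors of respiratory complex I. They were chosen by symbol alone, as the autosomal protein-coding genes of GENCODE M21 whose symbol is Nduf followed by a, b, c, s, v, ab or af and a digit, and 44 of 20780 autosomal protein-coding genes met this rule. Any subunit gene on X or Y, and assembly factors without an Nduf symbol, are therefore outside the set. By role, 7 of the 44 are core subunits, 27 are accessory subunits and 8 are assembly factors (Ndufaf genes). The other 2 are Ndufa4 and its paralogue Ndufa4l2. Listed poly(A) sites on the strand of a gene, from its start to 1000 bases past its end, were taken as its sites. This gave 202 sites in 42 of the 44 genes, and Ndufb10 and Ndufa4l2 had no listed site.

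The samples were 3 PAS-seq libraries, made with QuantSeq chemistry, in which each read marks the 3′ end of a polyadenylated RNA. All came from F121-9, a line of mouse embryonic stem (ES) cells from a Cast by 129 hybrid, with no treatment named in the labels, at passage 14 and from 500 ng of RNA. The labels call them biological replicates 1, 2 and 3 but name no separate cultures, so p-values measure only the spread between these libraries, which may be technical. There was 1 group and 1 line, and all comparisons were made between sites or genes within it.

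Complex I (NADH:ubiquinone oxidoreductase) is the entry point of the mitochondrial respiratory chain. It takes electrons from NADH through a flavin and a chain of iron-sulfur clusters to ubiquinone and pumps protons across the inner membrane. Its core subunits are shared with bacteria and are encoded partly by the nucleus and partly by mitochondrial DNA, its accessory subunits surround that core, and assembly factors help to build the complex without remaining in it. Naive mouse ES cells are known to use both glycolysis and oxidative phosphorylation. The end of an mRNA is set by cleavage and polyadenylation, which mostly needs a hexamer close to AATAAA shortly before the cut, and the site chosen fixes the length of the 3′ UTR.

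Reads at listed sites numbered 10147672, 13513327 and 13040620 in replicates 1, 2 and 3. Replicate 3 had only 216 reads off the 19 autosomes and none on X, Y or the mitochondrial genome, against 821582 and 1012989 in replicates 1 and 2. Levels are given as RPM, that is, relative to each library's own read total. Listed autosomal sites summed to 841292, 841462 and 927188 RPM, so the deposited scale of replicate 3 is not the same share of autosomal reads as in the others. Replicate 3 was the highest library for 48.9% of genes that reached 1 RPM. Of 10 ES cell markers, 9 reached 10 RPM, with sums of 3457, 3827 and 4059 RPM, and Dppa5a did not (0.314 RPM). Of 8 fibroblast markers only Thy1 reached 10 RPM (84.4 RPM), Postn and Dcn were at 0, and the sums were 83.4, 52.2 and 132.7 RPM. None of 6 primitive endoderm markers and 1 of 5 germ layer and epiblast markers (Otx2, 10.6 RPM) reached it.

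The ends of complex I transcripts were few, close to the stop codon and mostly preceded by a usual poly(A) signal. The sequences below show the 30 bases that end at the most used site (the main site) of members chosen for the kinds of signal found, read 5′ to 3′ on the gene's strand from the RefSeq copy of GRCm38 (mm10). Capitals mark the hexamer that set the class of the site (AATAAA where present, otherwise ATTAAA, otherwise any other listed one), and a run longer than a hexamer holds overlapping ones of that class. Listed hexamers of a lower class can remain in lower case.
Ndufb8, canonical signal (chr19:44550233-44550262, minus strand): tAATAAAgctcagtgctctggtttctgtgt
Ndufv1, canonical signal (chr19:4007507-4007536, minus strand): tggacAATAAAcaagtgctgtccactctcc
Ndufa12, ATTAAA (chr10:94220926-94220955, plus strand): acttgATTAAAattgtttgacctagcagtg
Ndufs8, CATAAA and AAGAAA (chr19:3908862-3908891, minus strand): ccCATAAAGAAActatgatcccacagctac
Ndufa7, AACAAA and AATATA (chr17:33838279-33838308, plus strand): atttgtAACAAATATAtagaattccacatt
Ndufaf3, AATAAT (chr9:108565866-108565895, minus strand): tcacccaggatAATAATttatactcctctt
Ndufaf6, ACTAAA (chr4:11051079-11051108, minus strand): aaaagatACTAAAatgattttatgttgctc
Ndufa4, no listed hexamer (chr6:11900425-11900454, minus strand): tatgtctctgaatgcatgaaatcatgttga

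Of the 44 genes, 41 had at least 50 reads and so a main site, as had 11844 of all genes. AATAAA lay within 40 bases before the main site in 26 of these 41 (63.4%), against 63.7% of all genes. In those 26 it began a median of 23.5 bases before the site, against 22 bases in all genes. ATTAAA without AATAAA stood before 8 main sites (19.5%, against 15.4%), among them those of Ndufa5, Ndufa8, Ndufa9, Ndufa12, Ndufb2, Ndufc2 and Ndufaf4. Another listed hexamer stood before 6 (14.6%, against 14.5%), those of Ndufs8, Ndufa2, Ndufa7, Ndufaf3, Ndufaf6 and Ndufaf8. Ndufa4 alone had none of the 18 listed hexamers there, against 6.41% of all genes. In a control window of 40 bases starting 100 bases downstream, AATAAA was found for 0 of the 41 members and 1.97% of all genes. The members' signals were thus of the same kinds and close to the same shares as in other genes. These list-wide figures are descriptions with no test.

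**Figure D1:**
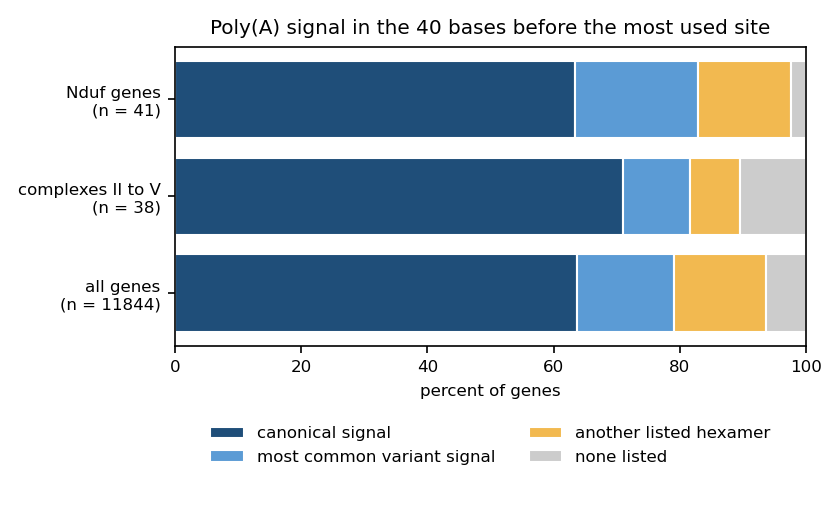
Percent of genes (x axis) whose most used poly(A) site has, in the 40 bases before it, the canonical signal AATAAA, its most common variant ATTAAA, another of the listed hexamers or none, for 41 Nduf genes, 38 genes of complexes II to V and 11844 autosomal genes. The canonical signal precedes 63.4% of Nduf main sites and 63.7% of those of all genes.

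The motif TGTA, on the transcript strand, lay in the 100 bases before the main site of 21 members (51.2%), against 54.3% of all genes. TGTG lay in the 40 bases after it in 21 members (51.2%), against 38.2%. A match is a description of the letters and not a bound site. A-rich genomic sequence, which can prime falsely, followed the main site of Ndufb3 and of no other member, against 1.61% of all genes.

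The 3′ UTRs were short. From the annotated stop codon to the main site they had a median of 93 bases (quartiles 66 and 119, range 18 to 353), against 667.5 bases (quartiles 276 and 1483) in 10954 genes with a measurable length. Of the 41 members, 23 (56.1%) were under 100 bases, against 7.20% of all genes, and 38 (92.7%) were under 200 bases, against 17.9%. None exceeded 1000 bases, as 37.4% of all genes did. At 100 RPM or more the medians were 85.5 bases in 28 members and 402 bases in 1618 genes, and the part of level in this difference was not tested. The core subunits had a median of 73 bases, the accessory subunits 95 bases (40 to 353) and the assembly factors 104 bases (18 to 240). The 36 genes of complexes II to V with a known length had a median of 148 bases.

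**Figure D2:**
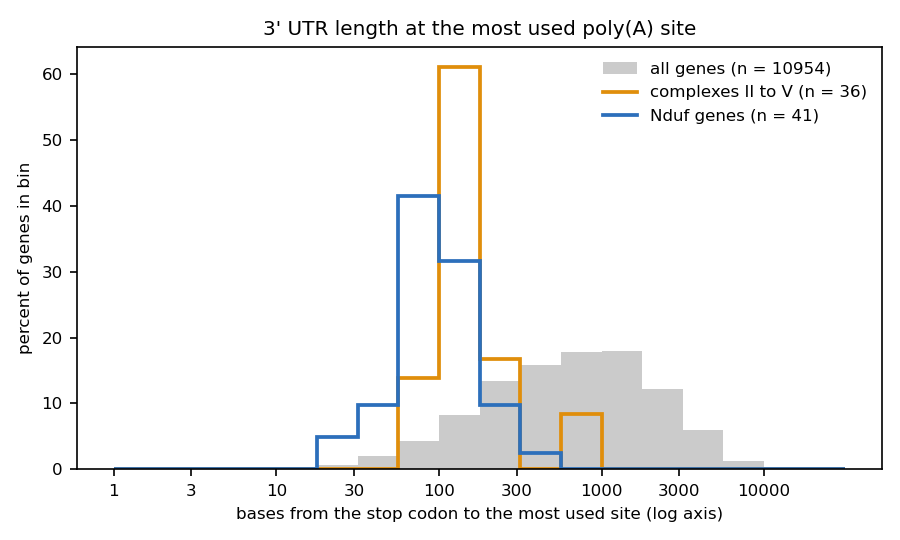
Length of the 3′ UTR at the most used site (x axis, bases, log scale) as percent of genes per bin (y axis), for 41 Nduf genes, 36 genes of complexes II to V and 10954 autosomal genes. The Nduf genes centre on a median of 93 bases and all genes on 667.5 bases.

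The extremes belonged to named members. Ndufa10, an accessory subunit of the membrane arm, had the longest at 353 bases, followed by Ndufaf4 (240 bases) and Ndufaf8 (219 bases). Ndufaf5, which hydroxylates an arginine of Ndufs7, and Ndufaf6 both had 18 bases. In both, the signal hexamer reached back past the UTR: AATAAA of Ndufaf5 began 20 bases before the cut, and ACTAAA of Ndufaf6 began 23 bases before it. This held for 2 of 40 members with a signal (5.0%) and for 0.680% of all genes. Ndufa11, of the membrane arm, had 40 bases, Ndufa13 (GRIM-19) had 51, and Ndufb4 had 54. The core subunit Ndufv2 had 55 bases.

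Most members used 1 site for nearly all of their reads. The main site took a median of 99.3% of a member's reads (99.45%, 99.41% and 99.26% in the 3 libraries), against 84.2% over all genes. It took over 90% in 33 members (80.5%, against 41.3% of all genes) and over 99% in 24 (58.5%, against 16.2%). A single site of at least 5% was found in 32 members (78.0%, against 40.1%). At 100 RPM or more the median was 99.5% in the members and 94.7% in all genes. Complexes II to V stood at 99.4%, close to complex I. Ndufv1, Ndufa2, Ndufb7 and Ndufs5 had only 1 listed site, which fixes their share. The main site lay in a terminal exon in 40 members and, for Ndufs5, just past the annotated end.

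**Figure D3:**
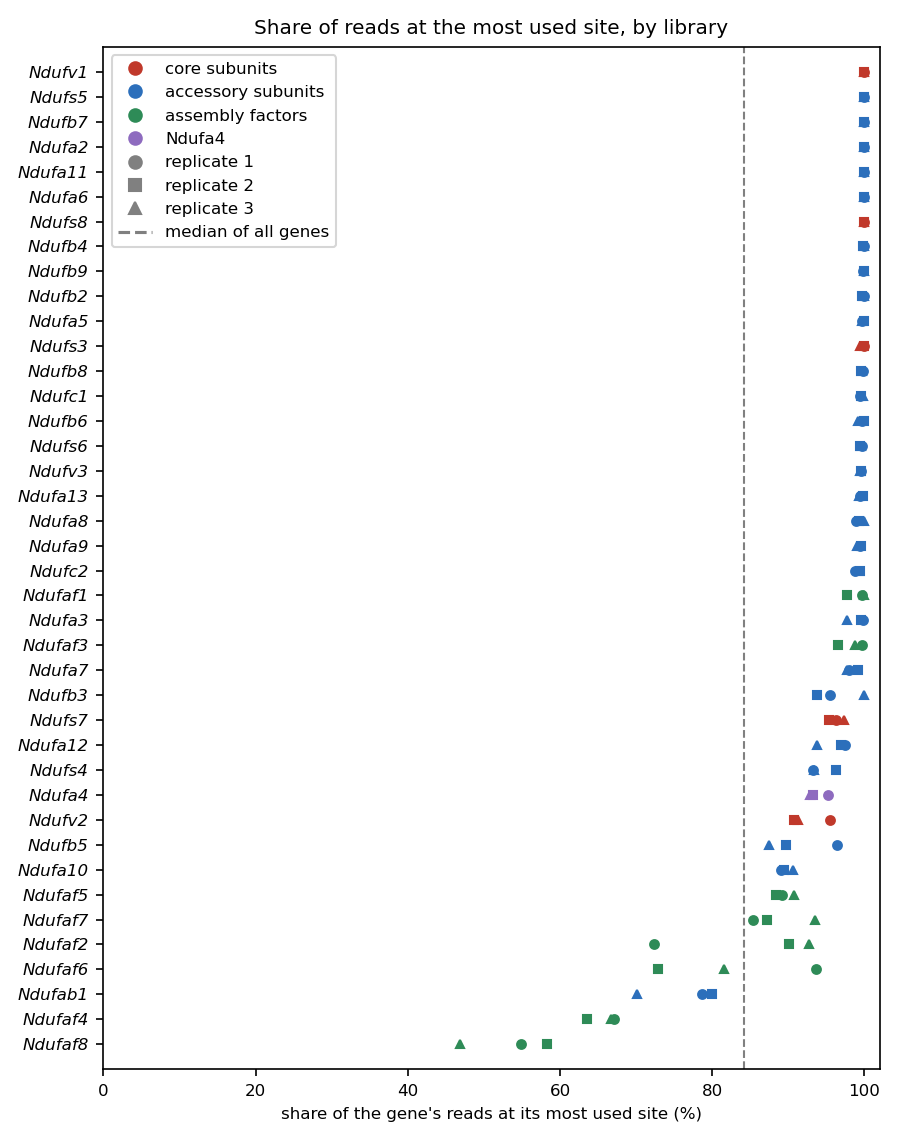
Share of a gene's reads at its most used site (x axis, percent) for the Nduf genes reported here with at least 50 reads, symbols for the 3 libraries, colours for the role and a dashed line for the median of all genes. The low end is mostly assembly factors, from Ndufaf8 at 53.3% upward, and the median over all genes is 84.2%.

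The lowest shares were mostly those of assembly factors, which held 5 of the 6 lowest. Their median was 86.9%, against 99.9% for 6 core and 99.5% for 26 accessory subunits. The main site of Ndufaf8, a partner of Ndufaf5, took 54.9%, 58.3% and 46.9% of reads. That of Ndufaf4, a factor for early assembly, took 67.1%, 63.5% and 66.6%. Ndufaf6 stood at 93.7%, 72.9% and 81.6%, and Ndufaf2, a factor of late assembly, at 72.4%, 90.1% and 92.7% on few reads (58, 131 and 124). Ndufaf7, a methyltransferase, stood at 85.4%, 87.2% and 93.5%, and Ndufaf5 at 89.1%, 88.4% and 90.7%. Ndufaf3, a partner of Ndufaf4, stood at 99.7%, 96.5% and 98.7%, and Ndufaf1, which acts in membrane arm assembly, at 99.7%, 97.7% and 100%. The other assembly factors with at least 50 reads, 10 genes with no Nduf symbol, had a median of 63.8%. Assembly factors were also read less, so fewer reads stand behind their shares, and the part of level in this difference was not tested.

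Of the reads of all members, 99.3% ± 0.12 (SD, n = 3) lay in terminal exons, 0.390% ± 0.0795 in introns, 0.204% ± 0.0254 in other exons and 0.0783% ± 0.0163 downstream. This placement used the exons of protein-coding transcripts only and differs from the deposited region code. By that code, 99.5% ± 0.077 of reads were at sites coded TE, 0.197% ± 0.0162 at IN and 0.266% ± 0.0492 at EX. Many listed sites carried almost nothing: 89 of 202 (44.1%) were read in 1 library and held 0.147% of reads, while 81 (40.1%) were read in every library and held 99.7%. Over all genes, 57.2% of sites were read in 1 library and 26.6% in every library.

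A few minor sites recurred in every library. Ndufs7, a core subunit with an iron-sulfur cluster next to the ubiquinone site, had an intronic site with 7.67, 8.15 and 6.11 RPM, or 3.68% ± 1.00 of its reads. It carried its own AATAAA, as did the main site.
Ndufs7, main site (chr10:80256763-80256792, plus strand): aatcccttgtgAATAAAcccatcctgatcc
Ndufs7, intronic site (chr10:80249253-80249282, plus strand): ccctaatactgAATAAAgtggaagttcttt
Ndufv2, a core subunit with an iron-sulfur cluster, had 11.5, 29.6 and 26.4 RPM (7.10% ± 2.44) at a site in an upstream alternative terminal exon with no listed hexamer. Ndufab1, the mitochondrial acyl carrier protein, had a second site 4005 bases past the main one with 4.44%, 4.25% and 18.1% of its reads, high in replicate 3 alone. Ndufs4, an accessory subunit whose loss in mice is a model of Leigh syndrome, had 3.46% ± 0.844 at a site in another exon with no listed hexamer. Ndufaf6 had 11.0% ± 4.79 at a site in another exon. Ndufaf4 had 5.41% ± 2.35 at a site placed in an intron here but deposited with the code EX.

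Tandem sites of 1 terminal exon were compared within each library, as the log2 ratio of the most distal to the most proximal site that held 5% or more of all reads of its gene. A gene was called at a limma adjusted p (Benjamini-Hochberg over 4840 genes) under 0.05 and a ratio of at least 2-fold. Only 5 members had such a pair, 12.2% of the 41, against 40.9% of all genes. Of these 5, 4 were called toward the proximal site, where 12.6% of all genes tested were, and 0 toward the distal site, where 29.8% were. Toward the distal site, limma also gave 0 at an unadjusted p under 0.05, and edgeR on recovered reads called 0. The pairs were picked from the same reads that were tested. Where 1 site held most of the gene's reads, as in Ndufa10, Ndufb5 and Ndufaf5, a call toward it was nearly fixed. Such calls add little to the shares given above. The median log2 ratio was -3.50 over the 5 members and 1.22 over all genes tested, and the median distance was 329 and 850.5 bases. At a site minimum of 1% of the gene's reads in place of 5%, where other pairs are compared, 11 of 12 members tested were called, 9 proximal and 2 distal (Ndufab1, log2 ratio 5.37, and Ndufb3, 6.33). In Ndufab1 and Ndufb3 the distal end was the main site. There Ndufaf4 had 1.48 (limma adjusted p = 0.542) and Ndufaf8 was called proximal at -6.33 (limma adjusted p = 0.0152). The minor site had 0 reads in replicate 3 for Ndufb3 (29, 47 and 0, proximal), Ndufaf4 (17, 41 and 0, proximal) and Ndufaf8 (46, 17 and 0, distal). The 0.05 RPM added to each value thus weighs on these ratios. The ends of the 5 pairs are shown with the capitals used as above.
Ndufa10, proximal (chr1:92439486-92439515, minus strand): gaagaAATAAAgccggctctgtagcccctc
Ndufa10, distal (chr1:92439018-92439047, minus strand): atttaacttaATTAAAacttaatgaaattt
Ndufb5, proximal (chr3:32751201-32751230, plus strand): AATAAAtactctgtatttttgctctgatgt
Ndufb5, distal (chr3:32751530-32751559, plus strand): aggaccagAATAAATAAAgccttagagttt
Ndufaf4, proximal (chr4:24902186-24902215, plus strand): gagtcaatATTAAAttccactttctagttt
Ndufaf4, distal (chr4:24903470-24903499, plus strand): acacAATAAAatccttccattttgcacatt
Ndufaf5, proximal (chr2:140203607-140203636, plus strand): gagaaaaaatAATAAAtactttgttcaatt
Ndufaf5, distal (chr2:140203654-140203683, plus strand): tttcatcagaAATAAAtagctttcacattt
Ndufaf8, proximal (chr11:120100354-120100383, plus strand): gagatgtaacatgaagatgatttaattttg
Ndufaf8, distal (chr11:120100393-120100422, plus strand): agacttttataTATAAAgcatggtataagg

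Ndufa10 had 86.3, 103 and 114 RPM at its proximal site and 7.85, 10.2 and 8.46 RPM at a site 468 bases further on. The libraries of the pair did not overlap, and the log2 ratio was -3.50 (SE 0.21, limma adjusted p = 7.22e-05). The proximal site has AATAAA and the distal one ATTAAA. Ndufb5, an accessory subunit of the membrane arm, had 190, 167 and 153 RPM at its proximal site and 6.40, 19.1 and 21.97 RPM at a site 329 bases on. Its distal share was 3.27% in replicate 1, 10.2% in replicate 2 and 12.5% in replicate 3, so the libraries differed about the minor site but not about which site led. The log2 ratio was -3.60 (SE 0.39, limma adjusted p = 0.00064), and both sites have AATAAA.

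Ndufaf5 had 45.8, 56.1 and 35.4 RPM at its proximal site and 2.44, 5.32 and 3.63 RPM at a site 47 bases on, which would lengthen its UTR from 18 to 65 bases. The log2 ratio was -3.62 (SE 0.33, limma adjusted p = 0.000316). Ndufaf4 had 51.8, 54.8 and 60.9 RPM at its proximal site and 18.6, 24.8 and 17.7 RPM at a site 1284 bases on, which gives UTRs of 240 and 1524 bases. Here the proximal site has ATTAAA and the distal one AATAAA, and still the proximal one led in 3 of 3 libraries, with a log2 ratio of -1.47 (SE 0.26, limma adjusted p = 0.00448). Without a variance trend in limma this call was lost (adjusted p = 0.0657).

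Ndufaf8 was the exception. Its 2 sites lie 39 bases apart and had 43.0, 39.6 and 75.9 RPM (proximal) and 57.4, 57.9 and 67.0 RPM (distal). The distal site was higher in replicates 1 and 2 and the proximal one in replicate 3, and no difference was called (log2 ratio 0.26, SE 0.23, limma adjusted p = 0.403). The distal site has TATAAA and the proximal one no listed hexamer. In the other lists fixed for comparison, 3 of 6 tested genes of complexes II to V were called distal and 2 proximal, and of 5 other assembly factors 2 were called distal and 0 proximal (also 0 at an unadjusted p under 0.05 in limma, and 0 in edgeR).

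**Figure D4:**
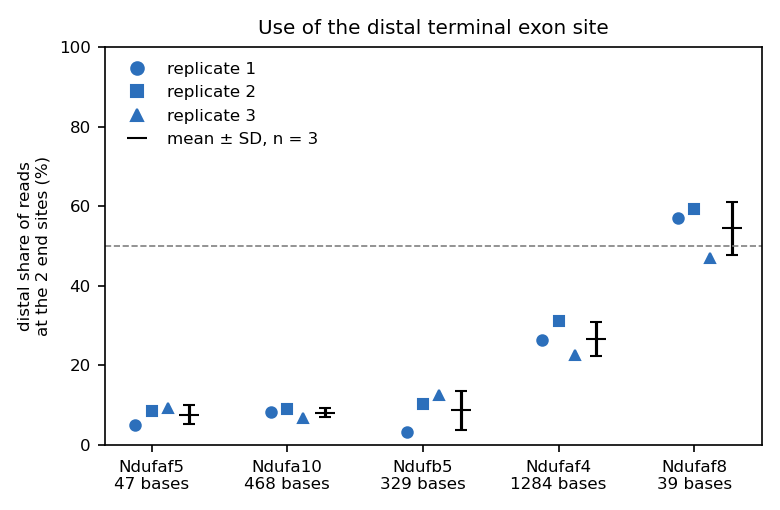
Share of the distal site in the reads of a tandem pair (y axis, percent) for the 5 Nduf genes with such a pair (x axis, with the distance between sites), symbols for the 3 libraries and bars for the mean and SD. Ndufa10, Ndufb5 and Ndufaf5 have means of 7.66 to 8.68%, Ndufaf4 of 26.7%, and the libraries of Ndufaf8 lie on both sides of the dashed line of equal use.

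The level of a gene was the RPM summed over its sites. Because each read marks 1 transcript end, such a level does not scale with transcript length. The members had a median of 149.1 RPM (149.7, 128.5 and 164.3 by library), and 28 of 44 (63.6%) reached 100 RPM, against 8.06% of all genes. All genes include many with few or no reads, and of genes at 1 RPM or more 13.8% reached 100 RPM. Of complexes II to V, 79.5% did. Together they held 7679, 7666 and 8531 RPM (7958 ± 496, SD, n = 3). These sums and their SD are on the deposited scale, on which listed autosomal sites held 841292, 841462 and 927188 RPM. The median coefficient of variation between libraries was 12.8% in the members at 1 RPM or more, 12.2% in complexes II to V, and 23.9% in all genes at 1 RPM or more, whose median level was only 18.6 RPM. Replicate 3 was the highest library for 24 of 41 members in the deposited scale and for 16 after scaling to autosomal reads, against 48.9% and 37.2% of all genes.

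The core subunits ran from 0.861 to 340 RPM on average, and their means lay below those of the 8 highest accessory subunits. The libraries did not separate them: Ndufv1 was above Ndufb9, the lowest of these 8 by mean, in replicates 2 and 3. Ndufv1, which binds the flavin and NADH, had 326, 334 and 361 RPM, and Ndufv2 had 258, 320 and 348 RPM. The ranges of Ndufv1 and Ndufv2 overlapped, though Ndufv1 was above Ndufv2 in every library. Ndufs7 had 202, 176 and 232 RPM, below both in every library. Ndufs3, of the arm that holds the ubiquinone site, had 102.5, 121 and 162 RPM. Ndufs8, an iron-sulfur subunit, had 98.96, 88.9 and 67.4 RPM.

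Ndufs1, the large iron-sulfur subunit of the NADH end, stood apart with 0.0902, 1.21 and 1.28 RPM, from 1, 18 and 18 reads. Of its 5 listed sites, 3 lie in the terminal exon and each held at most 2 reads in any library, while a site in another exon held 0, 11 and 17. Every other core subunit was read at 67.4 RPM or more in every library. The 100 bases before the annotated end of Ndufs1 had no other copy in the genome at 95% identity over 90% of their length. The same was true of Ndufb10, an accessory subunit with no listed site.

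Among accessory subunits, Ndufb8 of the membrane arm was highest, with 611, 629 and 718 RPM, and did not overlap the next, Ndufa7 of the matrix arm, with 509, 496 and 573 RPM. All 7 sites of Ndufb8 also lie in the annotated span of Gm20538, and all 4 of Ndufa13 in that of Yjefn3, so these levels are shared in the annotation. Then came a group that could mostly not be ordered. Ndufa13 had 351, 350 and 414 RPM, Ndufa11 had 320, 345 and 444, and Ndufa5, of the matrix arm, had 361, 317 and 398. Of the membrane arm, Ndufb4 had 328, 346 and 396 RPM, Ndufc1 had 329, 331 and 408, and Ndufb9 had 378, 322 and 334. Their means were 345 to 372 RPM, and the libraries of any 2 of them overlapped. Compared within each library, Ndufa13 was above Ndufb4 and Ndufc1 in every library, and the other pairs changed order between libraries. The accessory subunits had a median of 204 RPM, close to that of the core subunits (203.6 RPM).

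The low end of the accessory subunits was Ndufa8 with 33.2, 39.6 and 61.2 RPM, Ndufab1 with 32.5, 45.9 and 31.4 RPM, and Ndufs5 with 3.79, 2.09 and 5.69 RPM. Ndufs5 had a single listed site, with AATAAA before it. The other accessory subunits with sites lay between 63.0 and 302 RPM on average.

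Assembly factors were read less, with a median of 47.0 RPM, and only Ndufaf8 passed 100 RPM (105, 99.4 and 143 RPM). Ndufaf4 had 77.2, 86.2 and 91.4 RPM and Ndufaf3 had 68.1, 71.8 and 71.0 RPM. Ndufaf5 had 51.4, 63.5 and 39.0 RPM, Ndufaf7 had 49.4, 45.4 and 33.1 RPM, and Ndufaf1 had 31.8, 37.6 and 32.3 RPM. Ndufaf6 had 27.2, 19.9 and 22.4 RPM and Ndufaf2 had 5.23, 8.82 and 8.82 RPM. The 11 other assembly factors had a median of 9.15 RPM and were led by Ecsit (49.7 RPM), Dmac1 (33.3 RPM) and Tmem70 (32.1 RPM). Genes of complexes II to V were read more, with a median of 324.5 RPM over 39 genes, led by Atp5b (1694 RPM), Cox6c (1143 RPM) and Cox5a (1135 RPM).

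Ndufa4, first described with complex I and later assigned to complex IV, had 137, 101.8 and 124 RPM. Its main site, with no listed hexamer, was followed 52 bases on by a site with AATAAA that held 4.51% ± 1.47 of its reads. Ndufa4l2, its hypoxia-induced paralogue, had no listed site.

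Some members have near copies elsewhere, and how multiply mapped reads were treated is not given in the sources used here. The 100 bases before the main site had another copy at 95% identity or more for 8 of 41 members (19.5%), against 9.63% of all genes. These were Ndufa4 (3 copies), Ndufb3 and Ndufb4 (2 each), and Ndufa7, Ndufb6, Ndufs3, Ndufs5 and Ndufs6 (1 each), whose levels are therefore uncertain.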

How the data were processed

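Each of the 3 libraries came as the same list of 178115 sites. The authors deposited per site an RPM value, the mean RPM over libraries, the fraction of libraries with a read, a region code and signal hexamers; the columns were identified from their values, since the files have no header. Per the text files that accompany the deposited lists, the build is mm10 and the annotation GENCODE M21. Aligner and site caller: not given in the sources used here.

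Whole reads were recovered from the deposited RPM: 100% came out whole to within 0.01 reads, with 11085428, 14855484 and 14064461 reads as denominators. No molecular identifiers are described, so reads may not be independent molecules.

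Sites were placed by terminal exon, other exon, intron or downstream, from the exons of protein-coding transcripts only. The 18 hexamers were searched in the 40 bases before each site. Separately, all 95695 deposited hexamers compared were found in the genome at their deposited positions. A site was A-rich when the 20 bases after it held 12 A or a run of 6 A. Near copies came from blastn 2.17.0. Pairs of tandem sites in genes with at least 50 reads were tested with limma 3.58.1 (R 4.3.3) on log2(RPM + 0.05) ratios, two-sided, which understate ratios of rarely used sites. The empirical Bayes variance trend on level was chosen after a plain fit recovered almost none of the changes in simulated data. edgeR 4.0.16 on recovered reads was an alternative, as were other pseudocounts, site and gene minimums, distances, scalings and leaving out each library.

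The members, the comparison lists and the naming rule were chosen with earlier results of these data known. 1 member is not reported by name here, though it is counted in the summaries. Every other member could be named. Values per library were due for the 10 highest, the 5 lowest with reads, the core subunits, the assembly factors and the members called in the tandem test, and of other genes for at most the 3 highest of each list. Atp5md, Atp5pb and Coa1 were not matched in the annotation.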

Additional observations from a re-analysis of the deposited data

How the results depend on the processing

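The median level of the members was 149.1 RPM, 170.9 RPM when rescaled to autosomal reads and 138.8 to 156.2 RPM without 1 library. Without sites that also lie in another protein-coding gene, it was 132.9 RPM, and Ndufa13 and Ndufb8 had no reads left. The median share of the main site was 99.3 to 99.5% without 1 library, and AATAAA preceded 26 main sites under every alternative run. The median tandem log2 ratio of -3.50 was -2.49 with no gene minimum, -4.02 at a site minimum of 1%, -0.60 at 10%, and -3.15 to -3.60 without 1 library. Members called numbered 4, with 11 of 12 tested at a site minimum of 1% (2 distal, 9 proximal), 1 of 2 at 10%, 3 of 3 with at least 100 bases between sites, 3 of 5 with limma without a variance trend, and 4 to 5 without 1 library. At 1%, where other pairs of sites are compared, the ratio of Ndufaf4 reversed to 1.48 (limma adjusted p = 0.542) and that of Ndufaf8 to -6.33 (adjusted p = 0.0152). At 10%, Ndufa10, Ndufaf5 and Ndufb5 had no pair to test, and with at least 100 bases between sites Ndufaf5 and Ndufaf8 had none. Over all genes, 2053 were called, 3870 at a site minimum of 1%, 1092 at 10%, 1287 with limma without a variance trend and 1359 without replicate 2. Few reads stand behind the values of Ndufs1, Ndufs5 and Ndufaf2, with 37, 153 and 313 in all. The tandem ratio is taken within each library. No paired analysis between groups was possible because there is only 1 group.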
